A study of Mus musculus with 96 samples.

Results

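A set of 10 genes that label inhibitory interneurons, or the peptides and transmitters these cells release, was followed through striatum and cortex of mice that carry a Huntington's disease allele and lack Pms1. They are Sst, Npy, Cort, Cck, Vip and Crh, which encode peptides, Nos1 and Th, which encode enzymes that make a transmitter, and Pvalb and Calb2, which encode calcium-binding proteins. The 10 genes were chosen by name, as the rows of the read-count table that carry these symbols, out of 48795 genes in the table. Every gene had a single row.

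RNA of striatum and cerebral cortex was sequenced from 48 mice aged 6 months on a C57BL/6 background, with both tissues from each animal, 96 libraries in all. The genotypes were Q140 X Pms1-/-, Pms1-/-, Q140 X Pms1+/-, Pms1+/-, Q140 and WT, each with 8 animals, 4 females and 4 males. The Q140 allele, a knock-in of an expanded CAG repeat into Htt, is given by the labels as heterozygous in all 3 genotypes that carry it. Pms1 is a mismatch repair gene of the MutL family, and this repair pathway is known for its part in the somatic expansion of CAG repeats. Pms1+/- animals have lost 1 copy and Pms1-/- animals both. Both tissues were dissected whole, so each value is a sum over all cell types. In such samples fewer cells of a type and less RNA per cell cannot be told apart.

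Interneurons are neurons with local connections, and most of them use GABA. In the striatum, where most neurons are medium spiny projection neurons, the textbook classes include cells that make somatostatin, neuropeptide Y and nitric oxide together, fast-spiking cells with parvalbumin, cells with calretinin and cells with tyrosine hydroxylase. The cells with somatostatin, neuropeptide Y and nitric oxide synthase are known for being comparatively spared in Huntington's disease, while medium spiny neurons are lost. In the cortex the main classes carry Pvalb, Sst or Vip. Cck is made there by pyramidal cells as well as by a class of interneurons, and Crh and Cort by subsets of interneurons.

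Library totals lay between 27993751 and 56364535 counts (median 39928025), and 0 of 96 libraries went against the labelled sex or tissue. No library repeated another of its own genotype, sex and tissue (chi-square per degree of freedom of at least 3.25 in 144 pairs). Pairs across these labels were not compared. Levels within a gene are in CPM, read counts scaled to library size with TMM factors, and in the deposited FPKM between genes, since FPKM is per length. Htt lay between 196 and 225 CPM in all striatum libraries. Pms1 lay between 3.08 and 4.64 CPM in striatum of Pms1-/- and Q140 X Pms1-/- animals and between 4.89 and 5.85 CPM in WT striatum. In cortex it lay between 2.91 and 4.05 CPM in the same 2 null genotypes, against 3.30 to 4.37 CPM in WT. Reads of Pms1 therefore remained in null animals. The sources used here do not say which part of the gene the allele changes, so a count over the whole gene does not check this label. A further limit concerns the animal codes, whose first number is of unstated meaning. That number is 16 or above, called a late code here, in all 8 Q140 X Pms1-/- and all 8 Pms1-/- animals, against 0 Pms1+/-, 1 Q140 X Pms1+/-, 3 Q140 and 2 WT animals.

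The first sequences are promoter stretches, shown because several of the genes share a motif there. The motif is the cAMP response element, TGACGTCA, a binding motif of the CREB family that was first described in the somatostatin promoter. Promoter windows of RefSeq on build GRCm38.p6 run from 250 bases before to 50 bases after a transcript start. For Nos1 and Th the window lies inside the gene as annotated in GENCODE M21, so that start is not the gene's outer end. Of the 10 genes 8 had at least 1 window, 9 windows in all. Crh and Calb2 were not among them. Sst and Th held the full motif. Vip, Cort, Cck and Nos1 held only its 5-base part, TGACG or the reverse complement CGTCA, which also lies within the full motif. Npy and both windows of Pvalb held neither. Of 32851 windows of the same length, 588 (1.79%) held the full motif and 6837 (20.8%) held the 5-base part on either strand. The stretches around the match are shown on the gene's strand, upstream of the start, with the match in capitals.
Sst, chr16:23890861-23890916, minus strand: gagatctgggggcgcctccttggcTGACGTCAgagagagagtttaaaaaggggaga
Th, chr7:142900009-142900064, minus strand: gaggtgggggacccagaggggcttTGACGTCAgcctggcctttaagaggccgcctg
Vip, chr10:5639115-5639167, plus strand: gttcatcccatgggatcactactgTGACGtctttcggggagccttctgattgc
Cort, chr4:149126764-149126805, minus strand: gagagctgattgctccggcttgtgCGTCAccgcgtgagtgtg
Cck, chr9:121495713-121495765, minus strand: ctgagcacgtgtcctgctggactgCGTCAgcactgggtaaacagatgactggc
Nos1, chr5:117866685-117866737, plus strand: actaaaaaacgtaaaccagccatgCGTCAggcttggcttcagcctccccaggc
The match began 48 bases before the transcript start of the window in Sst, 45 in Th, 79 in Vip, 18 in Cort, 47 in Cck and 130 in Nos1. A match is a run of letters and was not tested for binding.

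The second pair of sequences lies near the end of the coding sequences of Sst and Cort, where the mature peptides somatostatin and cortistatin are encoded. It reaches the last of 116 codons in Sst but codon 108 of 109 in Cort, whose last codon is not shown. Both peptides bind the somatostatin receptors, and the stretches are shown because Sst and Cort, close in sequence here, differed in level and in response. Capitals mark bases that are identical at the aligned position in the GENCODE M21 transcripts.
Sst, codons 102 to 116: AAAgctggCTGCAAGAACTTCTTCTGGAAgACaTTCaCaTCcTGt
Cort, codons 94 to 108: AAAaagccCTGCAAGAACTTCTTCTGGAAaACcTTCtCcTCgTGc
The stretches shared 34 of 45 bases. Of the 10 genes only Nos1 overlaps other annotated genes, Gm37028 on the same strand and Gm26995 on the other, so its counts could include reads of these.

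In WT animals the 2 tissues differed in nearly all of these genes. Sst, which encodes somatostatin, was the exception. Its level was 108 ± 4.26 CPM in striatum and 104 ± 7.93 CPM in cortex (SD, n = 8 each), and the log2 difference was 0.02 (95% confidence interval -0.08 to 0.12; adjusted p = 0.694, edgeR). Of the 10 genes 9 passed the test, 2 higher and 7 lower in striatum, where 76% of the 19723 genes tested in both tissues passed. Nos1, the neuronal nitric oxide synthase, and Th, tyrosine hydroxylase, the first step of catecholamine synthesis, were the ones higher in striatum. Nos1 averaged 118 ± 4.63 CPM in striatum and 33.8 ± 3.21 CPM in cortex, a log2 difference of 1.77 ± 0.046 (SE). Th averaged 7.94 ± 0.805 CPM in striatum and 0.521 ± 0.242 CPM in cortex (log2 difference 3.85 ± 0.21).

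The other 7 genes were lower in striatum, to very different degrees. Vip, vasoactive intestinal peptide, was at 0.621% of its cortical level (0.349 ± 0.141 CPM in striatum and 56.1 ± 5.36 CPM in cortex). Cck, cholecystokinin, was at 1.71% (4.51 ± 0.669 CPM and 264 ± 14.4 CPM), and Cort at 2.80%. For comparison, Slc17a7, the vesicular glutamate transporter of cortical pyramidal cells, was at 0.320% of its cortical level in the same striatum libraries. Crh, corticotropin-releasing hormone, Pvalb, parvalbumin, and Calb2, calretinin, were at 13.2%, 13.3% and 21.2% of their cortical level in striatum. Npy, neuropeptide Y, was at 63.8% (35.5 ± 6.36 CPM in striatum and 55.7 ± 3.00 CPM in cortex).

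**Figure D1:**
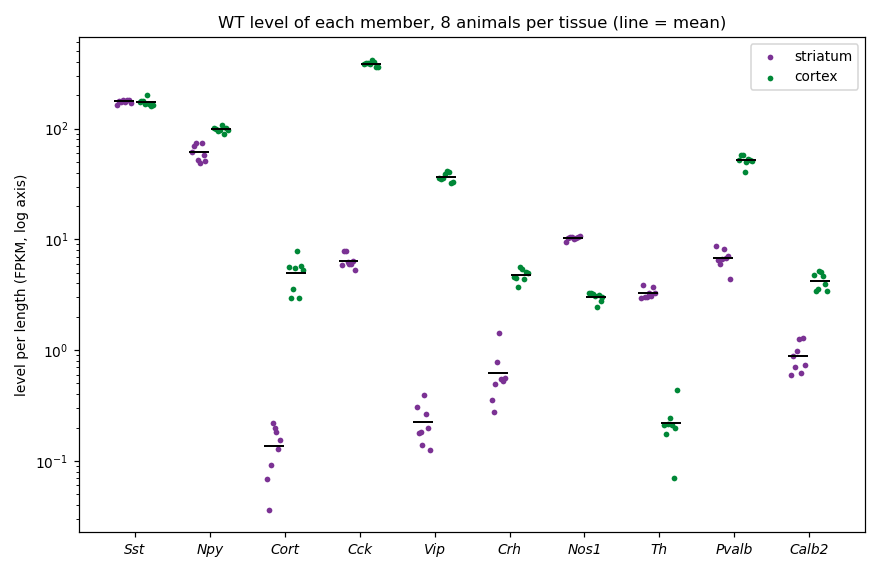
Level per length (FPKM, log axis) of the 10 genes in striatum (purple) and cortex (green) of the 8 WT animals, one point per library and a black line at the mean. Sst has the same height in both tissues (176 FPKM in striatum and 174 FPKM in cortex), Nos1 and Th are higher in striatum, and Vip, Cck and Cort are far lower there.

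The order of the levels per length therefore differed between the tissues. In WT striatum it ran from Sst (176 ± 6.33 FPKM, n = 8) through Npy (61.2), Nos1 (10.3), Pvalb (6.79), Cck (6.43), Th (3.28), Calb2 (0.882), Crh (0.621) and Vip (0.223) to Cort (0.135). Neighbours whose 8 libraries overlapped were Pvalb and Cck, Calb2 and Crh, Crh and Vip, and Vip and Cort. In WT cortex the order was Cck (385 ± 18.9 FPKM, n = 8), Sst (174), Npy (98.3), Pvalb (51.9), Vip (36.7), Cort (4.94), Crh (4.78), Calb2 (4.24), Nos1 (3.03) and Th (0.220). There Pvalb and Vip overlapped, as did Cort and Crh, and Crh and Calb2. Cort in striatum had between 0 and 8 counts in the 48 libraries and was too low to test there, which leaves 9 genes for the striatum.

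With the Q140 allele and both Pms1 copies, Crh, Nos1 and Sst fell in striatum and none rose, 3 of 9 genes called at an adjusted p under 0.05, a share near that of all 18890 striatal genes, of which 31.3% passed. The median log2 fold change of the 9 genes was -0.032, and that of all genes tested 0.012. The size of the 3 changes was unlike: Crh fell by 72.2%, Nos1 by 9.21% and Sst by 7.35%. Medium spiny neuron markers fell in the same libraries, 12 of 14 of them, with Penk (-1.07, log2 fold change) and Scn4b (-1.0) leading and Tac1 rising (0.17). The summed markers of astrocytes, of microglia and of endothelial and mural cells were lower there too. The summed level of 6 astrocyte markers was 3235 ± 105 CPM in Q140 and 3546 ± 116 CPM in WT striatum, that of 6 microglia markers 359 ± 19.8 and 397 ± 10.4 CPM, and that of 6 endothelial and mural markers 233 ± 12.1 and 264 ± 9.03 CPM (SD, n = 8 each). Of these lists 1, 5 and 4 genes fell and none rose. Their part in the changes of Nos1 and Sst, which are of like size, was not tested.

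Crh had 0.0250, 0.232 and 0.409 CPM as the lowest, median and highest value in Q140 striatum, against 0.380, 0.725 and 1.90 CPM in WT striatum. These levels rest on few reads, 1 to 23 counts per library in Q140 and 15 to 85 in WT. Only 1 Q140 library lay above the lowest WT library, and all 8 lay under the WT median. On the log2 scale the change was -1.85 ± 0.34 (SE; adjusted p = 2.74e-05, edgeR), and Crh passed under all alternatives run for it, with values between -2.49 and -1.32.

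Nos1 had 97.5, 107 and 115 CPM in Q140 striatum, against 108, 119 and 122 CPM in WT striatum. The groups overlapped, with 4 of 8 Q140 libraries under every WT library and all 8 under the WT median. The log2 fold change was -0.14 ± 0.040 (adjusted p = 0.00487, edgeR). It was -0.07 (adjusted p = 0.166, limma) on the deposited FPKM values, which scale each library by its gene total. It did not pass in males alone (-0.09, adjusted p = 0.209) or among early codes alone (-0.14, adjusted p = 0.0543).

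Sst had 86.5, 100 and 111 CPM in Q140 striatum, against 100, 109 and 114 CPM in WT striatum. Of the 8 Q140 libraries, 4 lay under every WT library and 1 above the WT median. The log2 fold change was -0.11 ± 0.042 (adjusted p = 0.0371, edgeR), and -0.04 (adjusted p = 0.490, limma) on FPKM values. It also missed the threshold without the filter on low counts (0.0612), in females (0.118) or males (0.280) alone, and among early codes alone (0.0817). Leaving out 1 library ended the call in 8 of 48 cases, namely Q140 replicates 3, 4 and 7 and WT replicates 2, 3, 4, 6 and 7, with the adjusted p reaching 0.133.

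Th and Cck lay near the threshold in the same comparison. Th had 5.54, 6.46 and 8.16 CPM in Q140 striatum, against 7.11, 7.76 and 9.49 CPM in WT striatum, with 5 of 8 Q140 libraries under every WT library (log2 fold change -0.23 ± 0.091, adjusted p = 0.0517, edgeR). Its adjusted p was 0.0175 to 0.0473 under 7 alternatives. It was -0.45 in females alone (adjusted p = 0.0256) and -0.01 in males alone. The difference between the sexes in the knock-in effect on Th was -0.44 (adjusted p = 0.750), and 0 of 9 genes passed that test in edgeR, DESeq2 or limma, where 0% of all genes did in edgeR. At an unadjusted p under 0.05 stood 2 of the 9, Vip and Th, and 1221 genes in all. Cck had 4.48, 5.36 and 6.39 CPM in Q140 striatum, against 3.74, 4.33 and 5.57 CPM in WT striatum (log2 fold change 0.25, adjusted p = 0.0958, edgeR). All 8 Q140 libraries lay above the WT median of Cck.

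Npy, Vip, Pvalb and Calb2 did not pass. Their log2 fold changes in Q140 against WT striatum were -0.03 (95% interval -0.21 to 0.15), 0.19 (-0.34 to 0.73), -0.02 (-0.47 to 0.43) and 0.04 (-0.35 to 0.44). Npy, which the striatal cells with Sst and Nos1 also make, spread between 26.7 and 42.1 CPM in Q140 striatum. In WT striatum it spread between 28.1 and 43.6 CPM.

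**Figure D2:**
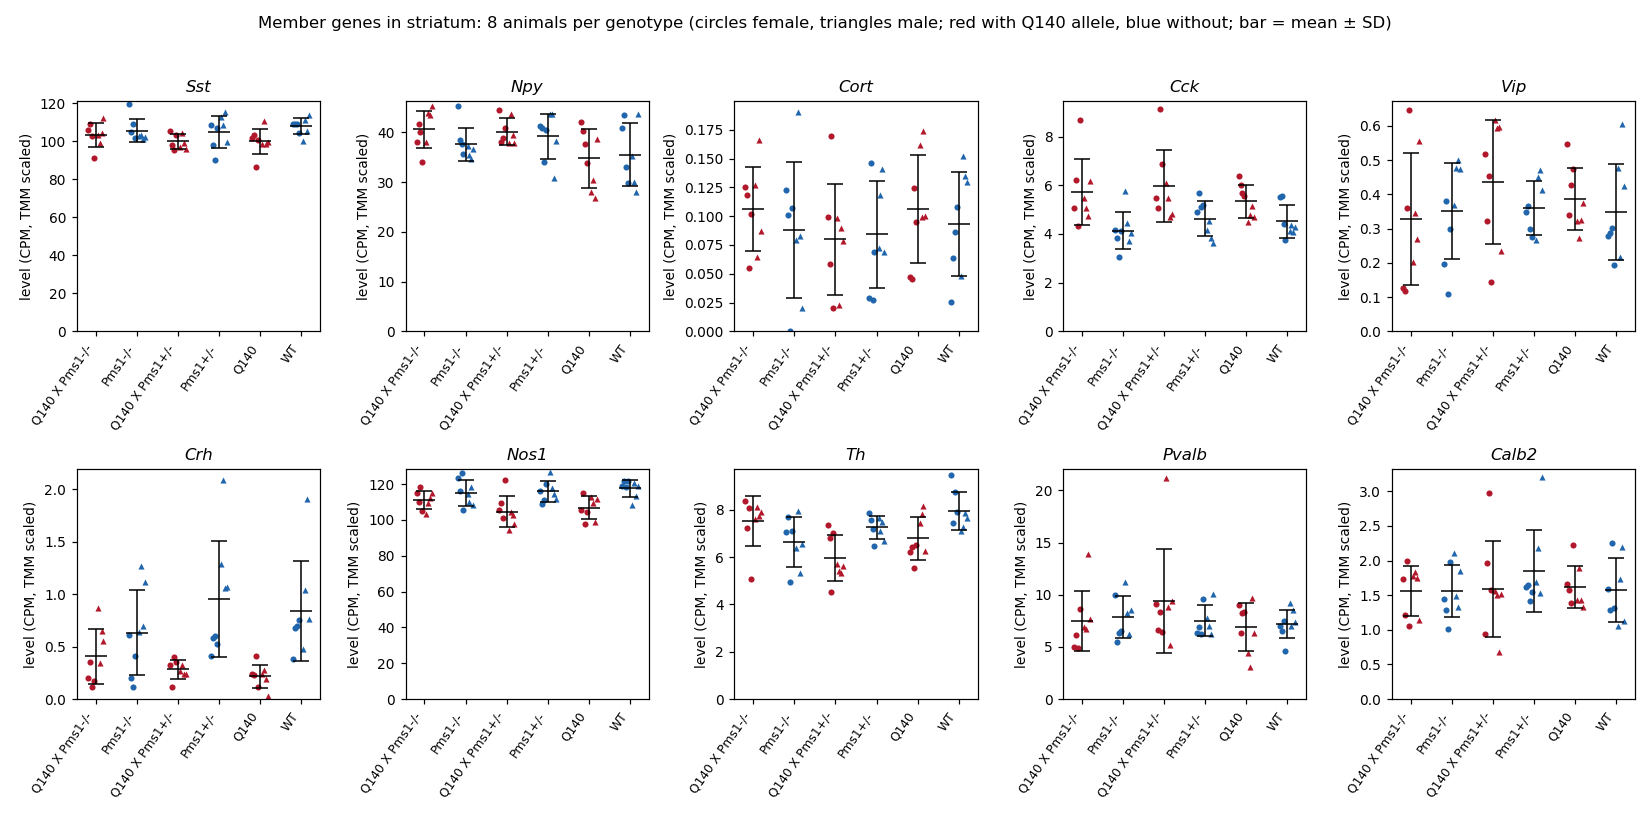
CPM of the 10 genes in striatum by genotype, 8 animals each (circles female, triangles male; red with the Q140 allele, blue without), with mean ± SD. Crh is low in Q140 (median 0.232 CPM) and Q140 X Pms1+/- animals, Cck is higher with the allele in each Pms1 background, and Sst and Nos1 differ by a few percent of their level.

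The same allele was measured in 2 further Pms1 backgrounds, with animals of their own. In Q140 X Pms1+/- against Pms1+/- striatum, 4 of 9 genes passed, where 24.9% of all genes did: Crh, Nos1 and Th fell and Cck rose. Crh had 0.117, 0.296 and 0.397 CPM in Q140 X Pms1+/- animals and 0.405, 0.829 and 2.09 CPM in Pms1+/- animals, without overlap between the 8 libraries of each (log2 fold change -1.65 ± 0.34, adjusted p = 0.000179, edgeR). Nos1 fell by 9.81% (log2 fold change -0.15, adjusted p = 0.00375), with 6 of 8 libraries under every Pms1+/- library.

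Th had 4.53, 5.68 and 7.35 CPM in Q140 X Pms1+/- striatum and 6.48, 7.32 and 7.87 CPM in Pms1+/- striatum (-0.28, adjusted p = 0.0256, edgeR). Of the 8 Q140 X Pms1+/- libraries 5 lay under every Pms1+/- library. The call ended without Q140 X Pms1+/- replicate 3, 5 or 6 (adjusted p up to 0.0683). Cck had 4.71, 5.48 and 9.15 CPM in Q140 X Pms1+/- striatum and 3.61, 4.70 and 5.67 CPM in Pms1+/- striatum (0.37, adjusted p = 0.0142). That call ended without Q140 X Pms1+/- replicate 5 (0.27, adjusted p = 0.0681), the library with 9.15 CPM. Sst did not pass (-0.07, adjusted p = 0.230).

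In Q140 X Pms1-/- against Pms1-/- striatum, 1 of 9 genes passed, Cck, where 11.1% of all genes did. All 16 animals of this comparison have late codes. Cck had 4.32, 5.28 and 8.67 CPM in Q140 X Pms1-/- animals and 3.06, 4.08 and 5.76 CPM in Pms1-/- animals, and all 8 of the Q140 X Pms1-/- libraries lay above the Pms1-/- median (0.45 ± 0.12, adjusted p = 0.00773, edgeR). Crh had 0.111, 0.350 and 0.864 CPM in Q140 X Pms1-/- animals and 0.110, 0.624 and 1.27 CPM in Pms1-/- animals, which overlapped (-0.61 ± 0.33, adjusted p = 0.255). Nos1 (-0.05, adjusted p = 0.458) and Sst (-0.03, adjusted p = 0.724) did not pass. Th had 5.06, 7.83 and 8.39 CPM in Q140 X Pms1-/- striatum and 4.96, 6.81 and 7.93 CPM in Pms1-/- striatum (0.19, adjusted p = 0.207). Without the 4 striatum libraries with the highest levels of cortical markers, Th rose here (0.30, adjusted p = 0.0261, edgeR), whereas it fell in the other 2 backgrounds at that setting (-0.23 in each). That setting was added after seeing the data. It leaves out the Q140 X Pms1-/- library with the lowest Th (replicate 7, 5.06 CPM). It also leaves out the Pms1-/- library with the highest Th (replicate 5, 7.93 CPM) and Pms1-/- replicate 1 (6.37 CPM).

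**Figure D3:**
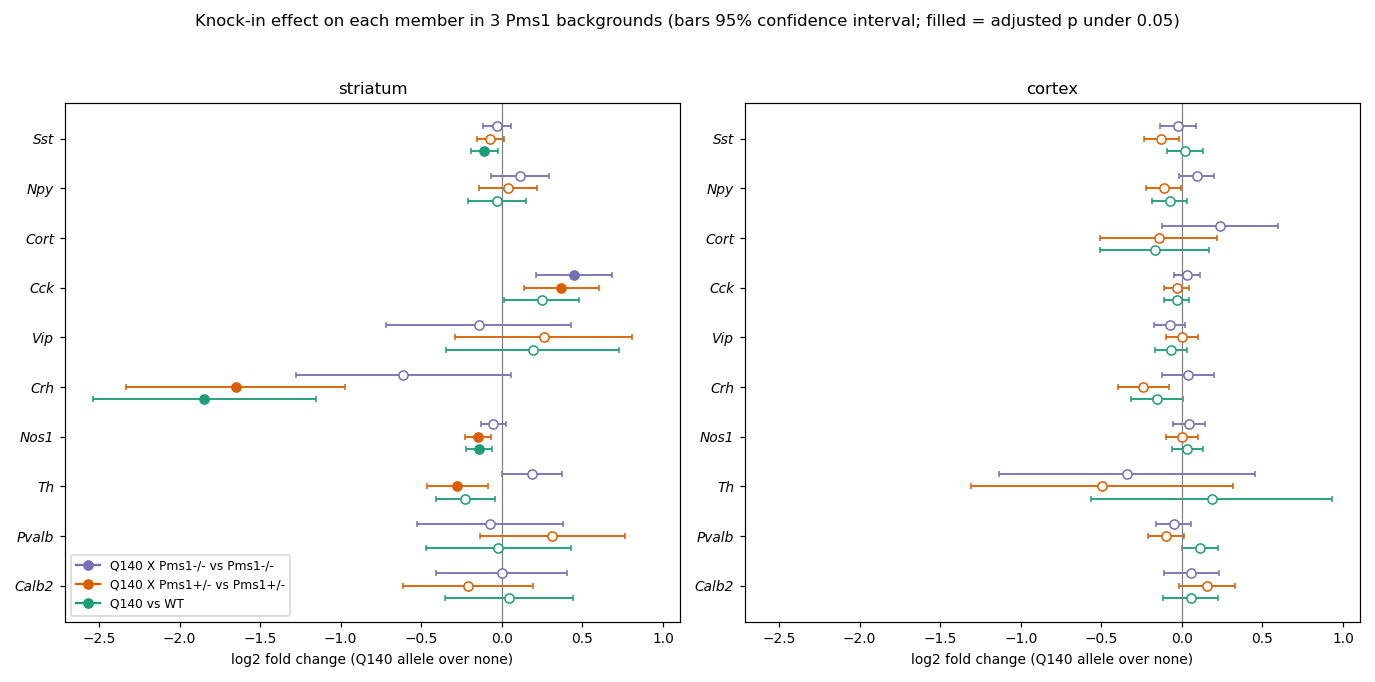
Log2 fold change of each gene with the Q140 allele in Pms1-/- (purple), Pms1+/- (orange) and Pms1+/+ (green) animals, striatum left and cortex right, with 95% confidence intervals and filled points where the adjusted p was under 0.05. In striatum Crh lies at -0.61, -1.65 and -1.85 in the 3 backgrounds and Cck at 0.45, 0.37 and 0.25, while no cortical point is filled.

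Whether the knock-in effect differed without Pms1 was tested directly, as the effect in Pms1-/- minus the effect with both copies. Of the 9 genes 0 passed in edgeR and in limma on FPKM values, and 1 in DESeq2, where 5.05% of all genes passed in edgeR. Crh and Th were the 2 genes at an unadjusted p under 0.05. Crh had the largest difference (1.24, 95% interval 0.26 to 2.21, adjusted p = 0.132, edgeR). Th had 0.41 (0.15 to 0.68, adjusted p = 0.0507), and passed under 4 alternatives: 0.0491 with DESeq2's size factors (RLE), 0.0405 with a term for late codes, 0.0266 in DESeq2 and 0.00479 without the 4 striatum libraries richest in cortical markers. These 4 libraries include the lowest for Th in Q140 X Pms1-/- (5.06 CPM) and the highest in Pms1-/- (7.93 CPM). Direct comparison of Q140 X Pms1-/- with Q140 striatum, which shares the Q140 libraries with the first comparison, called 0 of 9 genes in edgeR, DESeq2 or limma, where 7.1% of all genes passed in edgeR. The 2 genes at an unadjusted p under 0.05 were Crh and Npy. Crh was 0.78 higher on the log2 scale (unadjusted p = 0.0438, adjusted p = 0.243) and Npy 0.23 (adjusted p = 0.118). With a term for late codes Npy passed (0.34, adjusted p = 0.0395). In Q140 X Pms1+/- against Q140 striatum 0 of 9 genes passed in edgeR, DESeq2 or limma, where 0% of all genes did in edgeR. At an unadjusted p under 0.05 stood 1 of the 9, Npy, and 1026 genes in all.

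Averaged over the 3 backgrounds, 24 animals with the allele against 24 without, 4 of 9 genes passed, where 42.5% of all genes did. Crh (-1.37 ± 0.19, adjusted p = 9.21e-08, edgeR), Nos1 (-0.11 ± 0.023, adjusted p = 5.47e-05) and Sst (-0.07 ± 0.024, adjusted p = 0.0152) fell. Cck rose (0.36 ± 0.067, adjusted p = 1.85e-05), with 4.32, 5.48 and 9.15 CPM in animals with the allele against 3.06, 4.23 and 5.76 CPM in animals without. The spread of all 4 overlapped between the pools. All 4 calls held when each of the 48 libraries was left out in turn. On FPKM values Nos1 was -0.06 (adjusted p = 0.0139, limma) and Sst -0.02 (adjusted p = 0.514, limma), and Sst missed the threshold in females (adjusted p = 0.104) or males (adjusted p = 0.0988) alone.

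Cck and markers of cortical pyramidal cells moved together in a few striatum libraries. The summed level of 10 such markers was 32.5 to 60.7 CPM in Q140 X Pms1-/-, 34.5 to 59.9 in Pms1-/-, 36.2 to 77.4 in Q140 X Pms1+/-, 34.9 to 43.6 in Pms1+/-, 36.0 to 41.8 in Q140 and 34.9 to 40.6 CPM in WT striatum, against 2106 to 2450 CPM in WT cortex. The libraries with the highest Cck, Q140 X Pms1+/- replicate 5 (9.15 CPM) and Q140 X Pms1-/- replicate 7 (8.67 CPM), also had the highest sums, 77.4 and 60.7 CPM. Without the 4 libraries over 50 CPM, which also include Pms1-/- replicates 1 and 5, the averaged Cck change was 0.34 (adjusted p = 5.14e-07) and that in Q140 X Pms1-/- against Pms1-/- was 0.51 (adjusted p = 0.000387). Cck also passed for Q140 against WT then (0.25, adjusted p = 0.0216), as did Th (-0.23, adjusted p = 0.0224). Of the 9 cortical markers tested in striatum, 2 rose and 1 fell with the allele on average, where 42.5% of all genes passed.

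Genes that work with these peptides and enzymes were read from lists. Their counts in Q140 against WT striatum stand beside 31.3% called among all genes. Among receptors of the peptides, 2 of 14 rose in Q140 against WT striatum and none fell: Npy1r (0.45, adjusted p = 1.34e-06, edgeR) and Npy5r (0.19, adjusted p = 0.0138), both receptors for neuropeptide Y. Averaged over the 3 backgrounds, where 42.5% of all genes passed, 4 rose and 1 fell, among them the somatostatin receptors Sstr2 (0.24) and Sstr5 (-0.37). In Q140 against WT striatum, of 12 genes of peptide processing and dense-core vesicles 2 rose and 3 fell, with the prohormone convertase Pcsk1 at 0.38, Scg5 at 0.14, the granin Chgb at -0.29 and Vgf at -0.42. In the same comparison, of 8 nitric oxide signalling genes 1 fell, Ddah1 (-0.15), which breaks down an inhibitor of the enzyme. There, of 7 catecholamine genes 1 rose, Ddc (0.32), the enzyme after Th in dopamine synthesis, and 1 fell, Aldh1a1 (-0.34).

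Genes listed for the interneuron classes moved in both directions. Each value is a sum over all cell types of the striatum, so these changes are not assigned to interneurons. Of 12 genes of the lineage that gives Sst cells, 1 rose in Q140 against WT striatum, the transcription factor Satb1 (0.16), and none fell. Of 8 Pvalb-class genes Eya1 rose (0.33), while Syt2 (-0.66), a synaptotagmin, and Acan (-0.27), the perineuronal net protein aggrecan, fell. Of 12 genes of the lineage that gives Vip cells Lamp5 rose (0.20) and 3 fell, including the cannabinoid receptor Cnr1 (-0.80) and the serotonin receptor Htr3a (-0.35). Cnr1 is also made by medium spiny neurons. The 12 genes summed to 931 ± 58.3 CPM in WT striatum and 674 ± 26.5 CPM in WT cortex (SD, n = 8 each). Vip itself was at 0.621% of its cortical level in WT striatum. Of 10 genes shared by GABAergic neurons 2 rose, among them Dlx5 (0.13), and Dlx6 fell (-0.18). Among 9 other calcium-binding protein genes 7 fell, with Hpca (-0.49) and Necab2 (-0.33) leading, and none rose. The shares stand beside 31.3% called among all genes, and the median log2 fold changes of these lists lay between -0.06 and 0.05, except for the calcium-binding proteins (-0.21).

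Loss of Pms1 without the knock-in called 0 of the 9 genes in striatum in edgeR and limma, and 1, Th, in DESeq2. In Pms1-/- against WT striatum 7.91% of all genes passed in edgeR, and Th was the 1 gene of the 9 at an unadjusted p under 0.05. Th had 4.96, 6.81 and 7.93 CPM in Pms1-/- animals and 7.11, 7.76 and 9.49 CPM in WT animals, with 5 of 8 Pms1-/- libraries under every WT library (-0.26 ± 0.092, adjusted p = 0.0698, edgeR). It passed without the 4 libraries richest in cortical markers (-0.31, adjusted p = 0.0186). These include the Pms1-/- library with the highest Th (replicate 5, 7.93 CPM). Pms1+/- against WT striatum called 0 of 9 in edgeR, DESeq2 or limma, and 0 of 9 stood at an unadjusted p under 0.05, where 0% of all genes passed in edgeR (1882 at an unadjusted p under 0.05). The null effect averaged over animals with and without Q140 called 0 of 9 in all 3 tools, where 10% of all genes passed in edgeR, with 1, Npy, at an unadjusted p under 0.05.

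In cortex the knock-in allele called 0 of the 10 genes, in edgeR, DESeq2 or limma on FPKM values. In Q140 against WT cortex 0.0428% of 18711 cortical genes passed in edgeR, 8 genes, and 1 of the 10, Pvalb, stood at an unadjusted p under 0.05. The same shares of all genes were 0.112% in Q140 X Pms1+/- against Pms1+/- (3 of the 10 at an unadjusted p under 0.05: Sst, Npy and Crh), 0.0428% in Q140 X Pms1-/- against Pms1-/- (0 of the 10) and 1.73% for the average knock-in effect (1 of the 10, Crh). Crh in cortex had 4.47, 5.70 and 8.09 CPM in Q140 animals and 4.99, 6.29 and 7.46 CPM in WT animals (-0.15, 95% interval -0.31 to 0.01, adjusted p = 0.699, edgeR). The other 9 genes lay between -0.17 for Cort and 0.18 for Th.

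Whether the knock-in effect differed between the tissues was tested in 1 fit over all 96 libraries. Of 10 genes 2 passed, Crh and Nos1, where 13.3% of 19723 genes did. The log2 effect in striatum minus that in cortex was -1.72 ± 0.30 for Crh (adjusted p = 7.90e-06, edgeR) and -0.19 ± 0.064 for Nos1 (adjusted p = 0.0357). Sst (-0.14, adjusted p = 0.188) and Cck (0.27, adjusted p = 0.0944) did not pass.

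In Pms1-/- against WT cortex, 4 of 10 genes passed, all peptide genes and all lower, where 9.58% of all genes passed. The median log2 fold change of the 10 genes was -0.12, and that of all genes tested 0.0043. Cort, which had the largest change, fell by 41.8%, Crh by 22.7%, Npy by 10.5% and Cck by 10.2%. Sst (-0.01, 95% interval -0.12 to 0.10) and Vip (-0.02, -0.11 to 0.08) did not pass.

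Cort had 1.55, 2.00 and 2.26 CPM in Pms1-/- cortex, against 2.00, 3.62 and 5.39 CPM in WT cortex, from 55 to 95 counts per library in Pms1-/- and 72 to 183 in WT. Of the 8 Pms1-/- libraries, 4 lay under every WT library and all 8 under the WT median (-0.78 ± 0.17, adjusted p = 0.00383, edgeR). The WT libraries spread widely, and the libraries of the other genotypes lay within their range or under it, with medians of 2.30 CPM in Q140 X Pms1-/-, 2.08 in Q140 X Pms1+/-, 2.20 in Pms1+/- and 2.49 in Q140 animals. Cort passed in every alternative run for this comparison, including a term for late codes (-0.91, adjusted p = 0.0174) and late codes alone (-1.01, adjusted p = 0.00783), which rest on the 2 WT animals with late codes.

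Crh had 4.24, 4.78 and 5.50 CPM in Pms1-/- cortex, against 4.99, 6.29 and 7.46 CPM in WT cortex, with 5 of 8 Pms1-/- libraries under every WT library (-0.37 ± 0.079, adjusted p = 0.00261, edgeR). With a term for late codes it was -0.32 (adjusted p = 0.0664). Cck had 212, 238 and 263 CPM in Pms1-/- cortex, against 245, 265 and 288 CPM in WT cortex, with 7 of 8 Pms1-/- libraries under every WT library (-0.16 ± 0.039, adjusted p = 0.00859). With a term for late codes Cck was -0.08 (adjusted p = 0.376), and among late codes alone -0.04 (adjusted p = 0.829). Every null animal has a late code and 2 of 8 WT animals do, so beyond these fits code and genotype cannot be told apart.

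Npy had 43.2, 50.9 and 55.0 CPM in Pms1-/- cortex, against 50.8, 55.5 and 61.6 CPM in WT cortex (-0.16 ± 0.054, adjusted p = 0.0469, edgeR). Of the 8 Pms1-/- libraries 4 lay under every WT library. With a term for late codes Npy was -0.16 (adjusted p = 0.205), and on FPKM values -0.16 (adjusted p = 0.0510, limma). Over the 5 alternatives that ended the call the adjusted p lay between 0.0510 and 0.415. The call ended when any of 13 single libraries was left out (adjusted p up to 0.121): Pms1-/- replicates 1, 2, 4, 5 and 8, Q140 X Pms1+/- replicate 5, and WT replicates 1, 2, 3, 4, 5, 7 and 8.

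**Figure D4:**
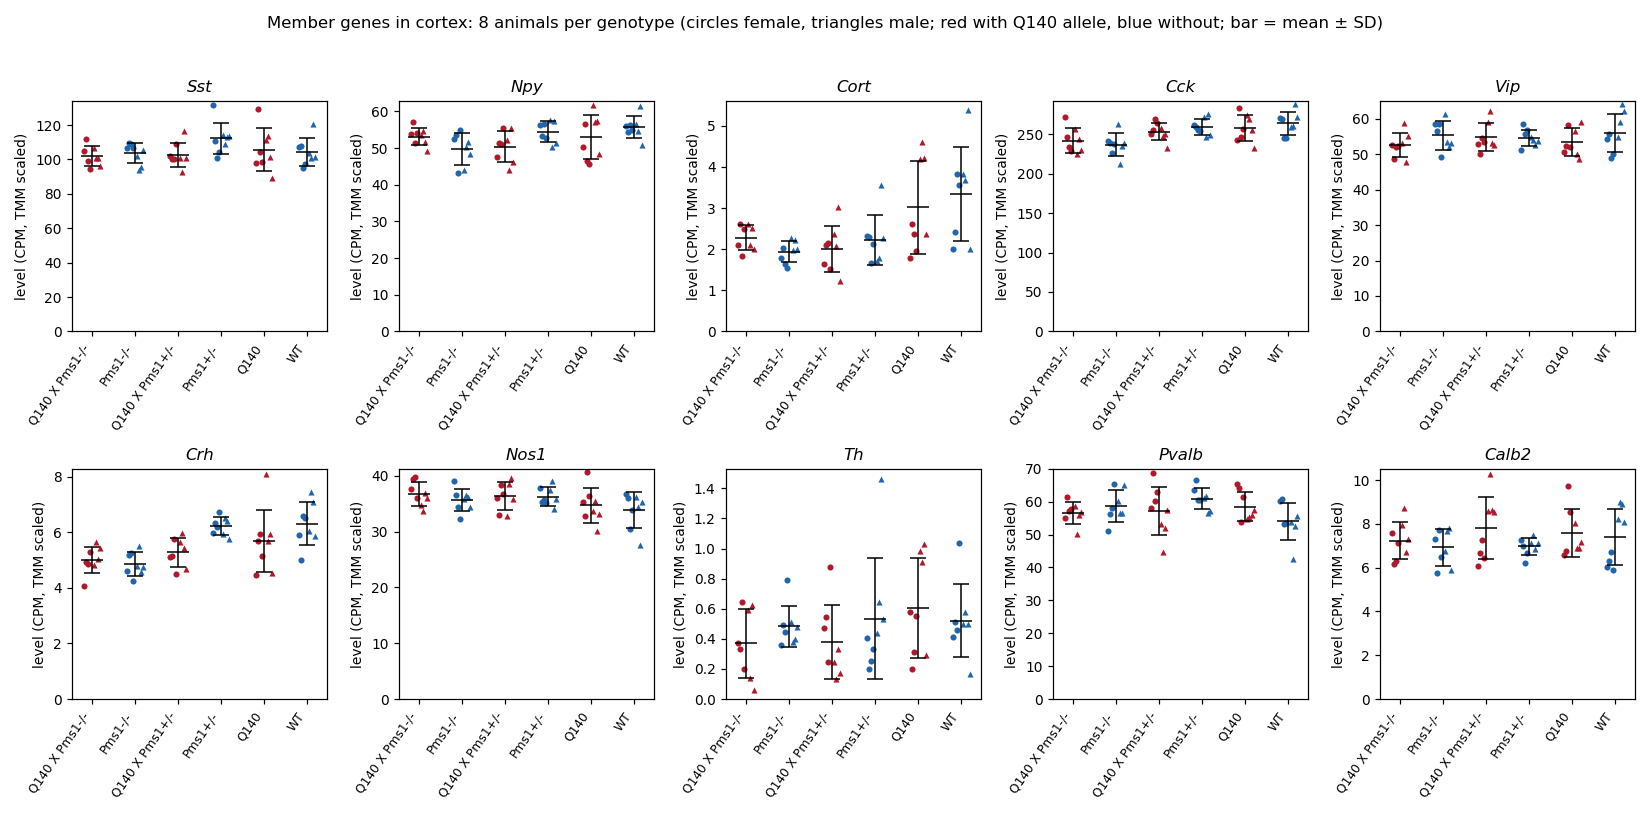
CPM of the 10 genes in cortex by genotype, 8 animals each (circles female, triangles male; red with the Q140 allele, blue without), with mean ± SD. Cort spreads from 2.00 to 5.39 CPM in WT and from 1.55 to 2.26 CPM in Pms1-/- animals, and the mean of Sst lies between 102 and 112 CPM in all 6 genotypes.

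Averaged over animals with and without Q140, 3 of 10 genes were lower in Pms1-null cortex, where 15.9% of all genes passed: Cort (-0.58, adjusted p = 0.00103, edgeR), Crh (-0.27, adjusted p = 0.000684) and Cck (-0.12, adjusted p = 0.00164). With a term for late codes Cort passed (-0.70, adjusted p = 0.0188), and Crh (-0.23, adjusted p = 0.109) and Cck (adjusted p = 0.466) did not. Q140 X Pms1-/- against Q140 cortex called 0 of 10 in edgeR, DESeq2 or limma, where 0.0107% of all genes passed in edgeR. The 3 genes at an unadjusted p under 0.05 were Cort at -0.38 (adjusted p = 0.303), Crh at -0.18 (adjusted p = 0.288) and Cck at -0.09 (adjusted p = 0.261). The difference of the null effect between knock-in and other animals called 0 of 10 in the same 3 tools, where 0% of all genes passed in edgeR (at an unadjusted p under 0.05, 2 of the 10, Npy and Pvalb, and 1020 in all). Loss of 1 copy called 0 of 10 in all 3 tools, also where 0% of all genes passed in edgeR. In Pms1+/- against WT cortex 3 of the 10, Cort (-0.59, adjusted p = 0.264), Pvalb and Nos1, and 1938 genes in all stood at an unadjusted p under 0.05. In Q140 X Pms1+/- against Q140 cortex these were 1 of the 10, Cort (-0.57, adjusted p = 0.835), and 1065 genes, 0% being called.

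Related genes in Pms1-/- against WT cortex included Cckbr (-0.18, adjusted p = 0.0363, edgeR), the main brain receptor for cholecystokinin and the 1 of 13 receptors that passed. Most genes of the class lists did not pass, in a comparison where 9.58% of all genes did. Of 12 genes of the lineage that gives Vip cells 1 fell, Lamp5 (-0.20), and of 11 of the Sst lineage 1 fell, Maf (-0.12). Of 10 genes shared by GABAergic neurons 2 rose, Erbb4 (0.18) and Dlx1 (0.17), and none fell. Endothelial markers fell in the same libraries, 3 of 6, led by Kdr (-0.51) and Cldn5 (-0.39). Their part in the changes of the peptide genes was not tested.

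Females and males differed in 1 of 9 genes in striatum, where 6.16% of all genes passed. Crh had 0.110, 0.368 and 0.757 CPM in females and 0.0250, 0.640 and 2.09 CPM in males (24 animals each; log2 difference -0.86 ± 0.19, adjusted p = 0.00516, edgeR). In WT animals Crh averaged 0.625 ± 0.168 CPM in females and 1.05 ± 0.618 CPM in males, and in Q140 animals 0.246 ± 0.122 and 0.184 ± 0.111 CPM (SD, n = 4 each). The knock-in effect on Crh differed between females and males by 1.16 (95% interval -0.12 to 2.45, adjusted p = 0.798).

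In cortex 2 of 10 genes differed between the sexes, where 5.36% of all genes did. Pvalb had 51.2, 60.4 and 68.7 CPM in females and 42.6, 56.2 and 65.2 CPM in males (0.11, adjusted p = 0.0347, edgeR), and Calb2 had 5.77, 6.68 and 9.71 CPM in females and 5.88, 7.74 and 10.3 CPM in males (-0.18, adjusted p = 0.0221). The sexes overlapped for both genes. Pvalb lost its call without Q140 X Pms1+/- replicate 3, 4 or 7 or WT replicate 2 or 3 (adjusted p up to 0.0530). Neither passed when animals sharing the first number of their code, all of 1 sex, were treated as a random block (adjusted p = 0.0909 for Pvalb and 0.0655 for Calb2, limma). For Calb2 the knock-in effect in cortex was also compared between the sexes. It averaged 7.89 ± 1.5 CPM in Q140 females and 6.24 ± 0.357 CPM in WT females, and 7.25 ± 0.529 CPM in Q140 males and 8.56 ± 0.459 CPM in WT males (SD, n = 4 each). The difference of the 2 effects was 0.58 (95% interval 0.29 to 0.87, adjusted p = 0.0928, edgeR; 0.0288 in DESeq2), and for Th it was -1.45 (95% interval -2.75 to -0.15, adjusted p = 0.378, edgeR). Calb2 was the 1 gene of 10 that DESeq2 called. In edgeR and limma 0 of 10 passed, where 0.0267% of all genes did in edgeR, and Vip, Calb2 and Th were the 3 genes at an unadjusted p under 0.05.

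Animals of 1 genotype and sex also varied, and some of the genes varied together. Deviations of log2 CPM from the genotype and sex mean were correlated over the 48 animals for 81 pairs of genes within a tissue, with permutation p-values adjusted over the 81. Of these, 8 pairs passed by Pearson's r, and 5 of the 8 by Spearman's rho as well. The share of passing pairs among all genes was not computed. In striatum the 1 pair that passed by both was Sst with Nos1, markers of the same cell class (r = 0.590, permutation p = 0.00045, adjusted p = 0.0157; rho = 0.580, permutation p = 0.00044, adjusted p = 0.0178). Without the 2 animals farthest from the median of Sst r was 0.531, and it was 0.628 in the 26 animals with early codes and 0.538 in the 22 with late codes. Sst with Npy in striatum passed by rho (0.471, permutation p = 0.00355, adjusted p = 0.0479) and not by r (0.378, permutation p = 0.0174, adjusted p = 0.112). On FPKM values Sst with Nos1 passed by r (0.548, adjusted permutation p = 0.0223) and not by rho (0.505, adjusted permutation p = 0.0533). There Sst with Npy in striatum passed by neither (adjusted permutation p = 0.214 for r and 0.141 for rho).

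In cortex Sst varied with Cck (r = 0.629, permutation p = 0.00003, adjusted p = 0.00243; rho = 0.697, permutation p = 0.00002, adjusted p = 0.00162; r = 0.620 without the 2 farthest animals, 0.614 in early and 0.712 in late codes). It also varied with Npy (r = 0.546, permutation p = 0.00058, adjusted p = 0.0157; rho = 0.463, permutation p = 0.0028, adjusted p = 0.0454; r = 0.503 without the 2 farthest, 0.681 in early and 0.307 in late codes). Cort varied with Crh (r = 0.504, rho = 0.460) and with Npy (r = 0.485, rho = 0.435), at adjusted permutation p-values of 0.0312 and 0.0367 for r, while rho did not pass (0.0558 and 0.0561). Pvalb ran against Calb2 (r = -0.50, rho = -0.442) and Crh (r = -0.459, rho = -0.482), and Vip against Th (r = -0.484, rho = -0.480), at adjusted permutation p-values of 0.0309, 0.0257 and 0.0312 for r. For rho these were 0.0561, which did not pass, 0.0454 and 0.0454. Without the 2 farthest animals these 5 values of r were 0.441, 0.443, -0.470, -0.510 and -0.413. On FPKM values Sst with Cck and Vip with Th passed by both r and rho. Sst with Npy and Pvalb with Crh passed there by r (adjusted permutation p = 0.0219 and 0.0223) and not by rho (0.0695 and 0.0533). The values of a pair share their library, its scaling and its dissection.

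**Figure D5:**
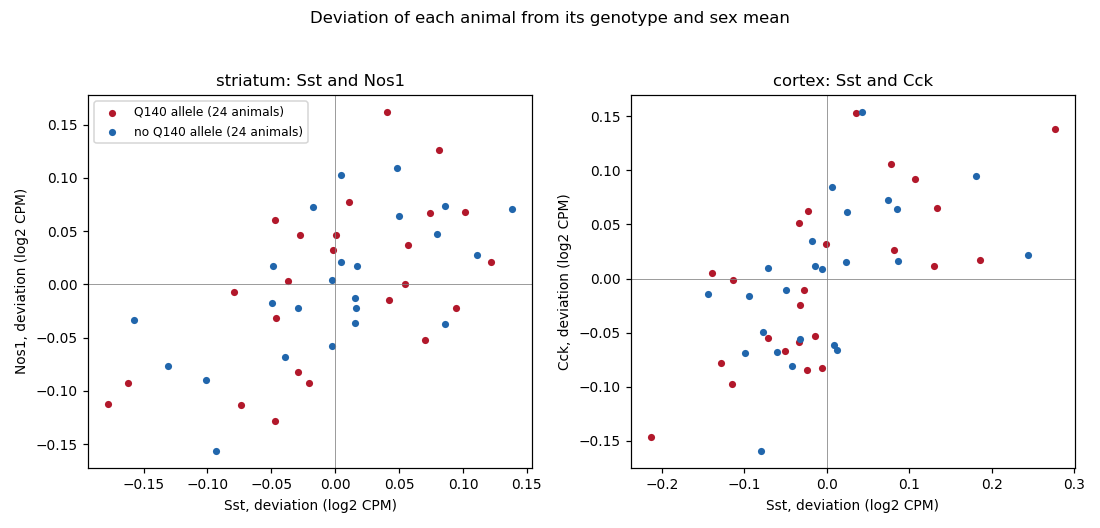
Deviation of each animal from its genotype and sex mean (log2 CPM), Nos1 against Sst in striatum (left) and Cck against Sst in cortex (right), 24 animals with the Q140 allele in red and 24 without in blue. Points run from the lower left to the upper right in both panels (r = 0.590 and 0.629).

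Between striatum and cortex of the same animal, none of the 10 genes passed after adjustment over the 10. Cort came nearest (r = 0.303, permutation p = 0.0316, adjusted p = 0.212; rho = 0.386, permutation p = 0.0101, adjusted p = 0.101; r = 0.317 without the 2 farthest animals), though its striatal values rest on at most 8 counts. Npy had r = -0.334 (permutation p = 0.0423, adjusted p = 0.212) and rho = -0.268, and r = -0.188 without the 2 farthest animals.

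Finally, the gene whose deviations were most like those of each of the 10 was taken from all genes tested with a mean of at least 1 CPM, as a description over 48 libraries. In striatum Pvalb had the closest companions, Nefh (r = 0.900), a neurofilament, Nrip3 (0.896) and Esrrg (0.882). Npy was most like Mapk3 (0.783), Th most like the receptor gene Gpr101 (0.672) and Cck most like Slc17a7 (0.672; rho = 0.386). Sst was most like Trh (0.605), Nos1 most like Scaf1 (0.644), Calb2 most like Ak5 (0.649), Crh most like Slc7a3 (0.629) and Vip most like Gm43848 (0.538). In cortex Sst was most like Arhgdia (0.838), Pvalb most like the potassium channel gene Kcng4 (0.826), Cck most like Arhgef4 (0.826), Cort most like Aldh1l2 (0.801) and Th most like Ano3 (0.784). The remaining cortical companions were Hrk for Nos1 (0.746), 2010300C02Rik for Vip (0.669), Eif4h for Npy (0.647), A930024E05Rik for Crh (0.615) and Cpne4 for Calb2 (0.604).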

How the data were processed

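Both tissues of the 48 animals were taken at 6 months, RNA was purified with an RNeasy kit and a stranded TruSeq preparation was used for the libraries, per the labels' protocols. Raw read counts, whole numbers for each gene in each library, were deposited in 1 table. The authors' FPKM values, in another, were these counts rescaled: of 15143 genes checked, 0 departed by over 0.001 from a product of a gene factor and a library factor. STAR 2.7.5c, SAMtools 1.10, HTSeq 0.12.3 and the builds GRCm38 and mm10 are named in the submitters' processing notes, with no role given, and neither annotation nor strand setting of the counting is stated there.

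The count tests used edgeR 4.0.16 under R 4.3.3 (TMM scaling, filterByExpr by genotype, robust quasi-likelihood fit), with terms for genotype and sex and a separate fit of the 48 libraries of each tissue, and over all 96 with genotype by tissue and sex by tissue terms for the comparisons of tissues. All p-values were adjusted by Benjamini and Hochberg over all genes tested in a comparison, 18890 in striatum and 18711 in cortex, and a gene was called at an adjusted p under 0.05. Of the 10 genes, Cort was filtered out in striatum. SEs are on the log2 scale and were derived from edgeR's output, as the absolute log2 fold change over the square root of the F statistic. Confidence intervals were built from these SEs with the same degrees of freedom in every fit. An interval therefore need not match the p-value beside it exactly. Fold changes on FPKM values are on the log2(FPKM + 0.1) scale, tested with limma 3.58.1. DESeq2 1.42.0, its size factors (RLE) in edgeR, no filter on low counts, a term for late codes, each sex alone, a random block of the code's first number (limma), an animal block and leaving out each library were the other settings. Early codes alone, late codes alone and leaving out 4 striatum libraries with over 50 CPM of 10 cortical markers were added after seeing the data. The p-values treat animals as independent, although a shared first code number carried a correlation of 0.133 (striatum) and 0.131 (cortex).

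The tissues are paired by animal code in the titles. Over 17976 genes an animal's 2 libraries, each as a deviation from its group's mean, correlated with a median of 0.161 (0.0605 to 0.333, 43 of 48 above 0.1), and 44 striatum libraries correlated best with their own animal's cortex. Correlations used log2 CPM (prior count 2), group means of genotype and sex removed and 100000 permutations of animals within genotype and sex, two-sided. The smallest p these can give is 1e-05. The edgeR fit was checked on simulated counts.

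The 10 genes, the lists and the alternatives were chosen with earlier results of these data known. Besides the 10, a list's genes are named for up to 2 called genes each way with the largest change and a mean of at least 1 CPM, and likeness to each of the 10 is Pearson's r of such deviations over the 48 libraries of a tissue, ranked to the first 3. One gene that the rule names is not reported here. Sequences came from RefSeq promoter windows (GRCm38.p6) and GENCODE M21 transcripts. Depth was 27993751 to 56364535 counts per library, which limits the low genes of striatum most.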

Additional observations from a re-analysis of the deposited data

Results flagged for a closer look

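Of 120 groups of 8 libraries (10 genes, 6 genotypes, 2 tissues), 14 held a library whose gap to the next exceeded Dixon's 95% critical value, which chance gives in about 1 in 20 groups. In striatum, Pvalb had 21.2 CPM in Q140 X Pms1+/- replicate 2 (next 9.45) and 13.9 CPM in Q140 X Pms1-/- replicate 5 (next 8.60). Both libraries also had high Nefh, 53.8 and 46.5 CPM, the gene most like Pvalb in striatum. Cck was at 8.67 CPM (next 6.23) and Th lowest at 5.06 CPM (next 7.23) in the same library, Q140 X Pms1-/- replicate 7, whose cortical markers sum to 60.7 CPM. Their part in these values was not tested.

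Pms1-/- replicate 2 was highest for Sst at 119.5 CPM (next 109) and for Npy at 45.3 CPM (next 38.5) in striatum. Calb2 reached 3.20 CPM in striatum of Pms1+/- replicate 5 (next 2.18), and Crh 1.90 CPM in WT replicate 5 (next 1.04). In cortex, Sst had 132 CPM in Pms1+/- replicate 1 (next 114), Cort 3.56 CPM (next 2.32) and Th 1.46 CPM (next 0.645) in Pms1+/- replicate 4. Crh had 8.09 CPM in cortex of Q140 replicate 3 (next 5.94), Th 0.791 CPM in Pms1-/- replicate 6 (next 0.514), and Pvalb was lowest at 42.6 CPM in WT replicate 4 (next 52.6).

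The effect of Q140 against WT differed between striatum and cortex for 2 genes by a test of the difference in edgeR. The log2 effect in striatum minus that in cortex was -1.72 for Crh (adjusted p = 7.90e-06) and -0.19 for Nos1 (adjusted p = 0.0357).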

How the results depend on the processing

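The number of the 10 genes called stayed within 1.5 times its value in 201 of 225 settings, and no direction was reversed. Most comparisons called 0 of the 10 genes to begin with, some of them where 0% of all genes passed. A count that stayed at 0 there shows little. With a term for late codes the counts were 1 for Pms1-/- against WT cortex (4 in the report; 2 among late codes alone), 1 for the averaged null effect in cortex (3), and 1 each for Q140 X Pms1-/- against Q140 striatum and for the difference of the knock-in effect in Pms1-/- striatum (0 each). That difference also gave 1 with RLE size factors, 1 in DESeq2 and 1 without the libraries rich in cortical markers. Without those libraries, Q140 against WT striatum gave 5 (3 in the report; 1 in males alone), Q140 X Pms1-/- against Pms1-/- 2, Pms1-/- against WT striatum 1 and female against male striatum 2. DESeq2 gave 1 for Pms1-/- against WT striatum and 1 for the difference of the sexes in cortex. Female against male cortex gave 1 without the filter on low counts and 0 with a random block of the code. Striatum minus cortex for the knock-in effect gave 1 without the filter. Pairing the tissues by a block for the animal left 9 genes called between WT striatum and cortex and 2 for the tissue difference of the knock-in effect, and changed no call. Leaving out 1 library gave 2 to 4 for Q140 against WT striatum, a low of 2 for Q140 X Pms1+/- against Pms1+/- striatum, a low of 1 for female against male cortex, and a high of 2 for female against male striatum and of 1 for Pms1-/- against WT, the averaged null effect and the difference of the knock-in effect in striatum. Of 297 values of single genes, 247 kept their side of the threshold, 21 gained it and 29 lost it. Except where fewer animals or genes were tested, the cause was not tested. Scaling to library totals moved the median of all genes in Q140 against WT striatum to 0.0745 (0.0106 with TMM). Depth limits Crh, Vip and Cort in striatum.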

Other observations

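The genes around Th in dopamine synthesis differed in direction in striatum with the Q140 allele, averaged over the 3 Pms1 backgrounds. Ddc, the enzyme after Th, rose (0.16, adjusted p = 0.00283, edgeR) and Gch1, which makes the cofactor of Th, fell (-0.32, adjusted p = 0.00124), while Th was at -0.11 (adjusted p = 0.109), and at -0.05 (adjusted p = 0.410) without the 4 striatum libraries richest in cortical markers. Of the 7 catecholamine genes tested 2 rose and 2 fell. Of 6 markers of cholinergic interneurons, a striatal class that none of the 10 genes labels, 1 rose and 2 fell. The transcription factor Isl1 rose (0.25, adjusted p = 8.21e-12), and the transcription factor Gbx1 (-0.43, adjusted p = 0.000136) and the choline transporter Slc5a7 (-0.06, adjusted p = 0.0342) fell. In these comparisons 42.5% of all genes passed.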
